A study of Mus musculus with 4 samples.

Results

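Regulatory T cells that lacked transcripts of Areg and Il1rl1 were examined among CD4 T cells sorted from mouse tumours. A cell was taken as a member when its barcode held at least 1 unique molecular identifier (UMI, 1 counted RNA molecule) of Cd3d, Cd3e or Cd3g and at least 1 of Foxp3, none of Cd8a or Cd8b1, none of Areg or Il1rl1, and at most 3 of the macrophage genes Lyz2, C1qa, C1qb and Csf1r together. These measured counts chose the members, so the levels of these genes are a description of the rule and not a finding. A barcode first had to show 500 or more genes and no more than 10% of its UMIs from mitochondrial genes, and 313 of the 20137 that did were members. The library labelled Tc1 gave 102 of its 11933 barcodes and the library labelled Tc9 gave 211 of its 8204. In the same gate 202 Tc1 cells and 1042 Tc9 cells had a Foxp3 UMI, with or without Areg and Il1rl1.

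All tumours grew in wild-type B6 mice, which carry Thy1.2 on their T cells. The tumours are called chimeric in the labels. Each mouse had received Pmel-1 T cells marked by Thy1.1, given with adjuvant, as Tc1 cells in one group and as Tc9 cells in the other. Pmel-1 cells are CD8 T cells with a transgenic receptor for a melanocyte antigen. Tc1 and Tc9 name CD8 T cells that have been steered towards interferon-gamma or interleukin-9 production. Tumours of 3 mice were pooled per group on day 30 after inoculation, and each pool was read out as 1 library of RNA and 1 of T cell receptors (TCR). The age and sex of the mice are not given in the sources used here, and no group without transferred cells was analysed. With 1 library per group the spread between mice is unknown, no difference between groups was tested, and every interval below covers counting error only. The transferred treatment, the pool of mice and the library cannot be told apart.

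Foxp3 is the transcription factor that defines regulatory T cells (Treg cells), which restrain other immune cells. They take up interleukin-2 through a receptor chain encoded by Il2ra, block costimulation through Ctla4, and use Ikzf2 (Helios) to keep their identity stable. Areg encodes amphiregulin, a growth factor, and Il1rl1 encodes ST2, the receptor for interleukin-33. Both mark Treg cells of tissues that take part in repair, so the members here are the Foxp3 cells in which neither transcript of that programme was counted. A count of 0 in a cell sampled at this depth does not show that the gene is silent. In mouse genome build GRCm38.p6 (RefSeq), Foxp3 lies on chromosome X at 7579676 to 7595243, Il2ra on chromosome 2 at 11642792 to 11693194, and Ctla4 and Ikzf2 on chromosome 1 at 60909025 to 60915832 and 69531207 to 69687351. Areg lies on chromosome 5 at 91139599 to 91148432 and Il1rl1 on chromosome 1 at 40404864 to 40465418.

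The members had a median of 4232 UMIs in Tc1 (range 1085 to 118011) and 4536 in Tc9 (782 to 21517), and they summed to 760660 and 1173492 UMIs. They were compared with cells of the same gate that had no Foxp3 UMI and at least 1 Cd4 UMI, 1077 in Tc1 (median 3369 UMIs) and 3722 in Tc9 (5427.5), called comparison cells below. A second comparison used the Foxp3 cells of the gate that did have an Areg or Il1rl1 UMI, 100 in Tc1 (median 5597.5) and 831 in Tc9 (5881). Although the sort was for CD4 T cells, 4481 Tc1 barcodes (median 5471 UMIs) and 464 Tc9 barcodes (2325) that passed the filters had no Cd3 UMI, and shares in these barcodes are given as a background. The libraries shared 148 barcode sequences, 4 of them among Tc9 members and 0 among Tc1 members.

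A few member barcodes stood apart. In Tc1, 4 of 102 held at least 50 UMIs of marker genes of another cell type and carried 19.96% of all member UMIs. One of them alone held 118011 UMIs, 15.5% of the total, with 367 UMIs of Pmel and 485 of Dct, both pigment cell genes, against 1 of Foxp3 and 0 of Ctla4. The other 3 were led by dendritic cell genes or by haemoglobin. In Tc9, 2 of 211 were of this kind, led by macrophage and by fibroblast genes, and carried 2.96% of the UMIs. Values without these barcodes are given beside results that they change. Members above the 95th percentile of UMIs of their gate numbered 17 in Tc1 and 13 in Tc9, and held 53.6% and 17.4% of member UMIs. Their part in the results was measured by leaving them out where stated. No doublet caller was run, and 3 members in each library had 2 productive TCR beta chains.

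Members near the edges of the rule are given as counts. Of the Tc1 members, 38 had exactly 1 Foxp3 UMI, 19 had 2 and 45 had 3 or more. Of the Tc9 members, 75, 47 and 89 did. Just outside, 25 Tc1 and 99 Tc9 Foxp3 cells had exactly 1 Areg or Il1rl1 UMI and 75 and 732 had more. Another 50 Tc1 and 30 Tc9 Foxp3 cells were left out for a Cd8 UMI, and 62 and 1 for more than 3 macrophage UMIs.

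The 3 Treg genes that the rule did not use were detected in a larger share of members than of comparison cells. At equal depth Ikzf2 and Ctla4 were detected in most members and Il2ra in a minority. To compare cells at equal depth, each cell was thinned to 2000 UMIs, which kept 96 Tc1 and 197 Tc9 members. Ikzf2 was then detected in 79.1% of Tc1 and 66.0% of Tc9 members, against 7.36% and 12.6% of comparison cells and 1.78% and 12.5% of the barcodes without Cd3. Ctla4 was detected in 63.9% and 67.8% of members, against 13.7% and 15.2% of comparison cells and 0.980% and 9.48% of barcodes without Cd3. Il2ra was detected in 34.9% and 43.0% of members, against 5.42% and 8.49% of comparison cells and 0.761% and 11.3% of barcodes without Cd3. The member shares of all 3 genes were above both other shares in each library. In Tc9 the comparison cells' shares of Ikzf2 and Il2ra were close to or below those of barcodes without Cd3. All 3 genes were found together in 3.33% of those Tc9 barcodes (1.53 to 6.24%), so they are not a pure measure of free RNA. At this depth none of the 3 was detected in 10.2% of Tc1 members (4.94 to 18.03%) and 10.3% of Tc9 members (6.44 to 15.4%), against 77.2% and 70.5% of comparison cells. All 3 were detected together in 20.4% and 24.7% of members and in 0.589% and 1.03% of comparison cells. By these genes the label of Treg cells held for most members.

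**Figure D1:**
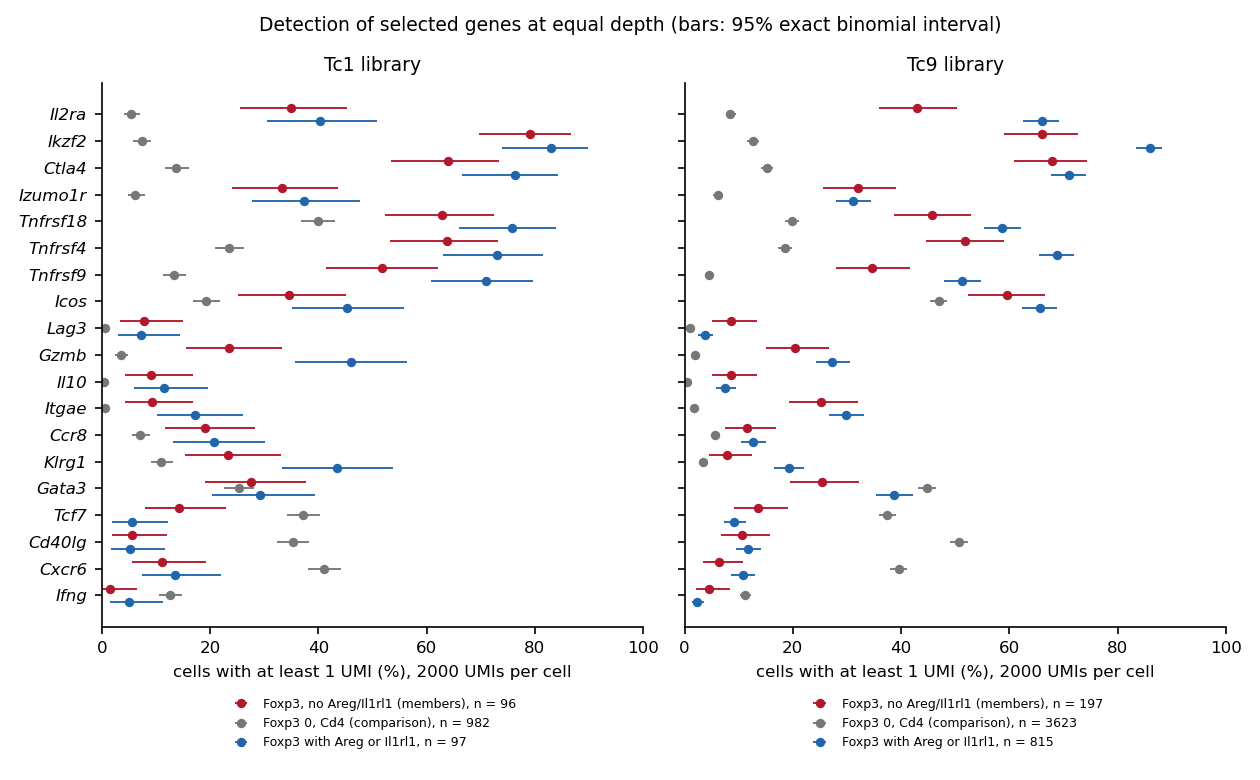
Share of cells with at least 1 UMI of each gene (horizontal axis, percent) after thinning every cell to 2000 UMIs, in the Tc1 library (left) and the Tc9 library (right), for members, comparison cells and Foxp3 cells with Areg or Il1rl1; points are shares and bars 95% exact binomial intervals. Il2ra, Ikzf2 and Ctla4 of members lie far above those of comparison cells (Ikzf2 79.1% against 7.36% in Tc1), and Cd40lg and Cxcr6 lie far below.

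Members with 2 or more Foxp3 UMIs held more Ctla4, Ikzf2 and Il2ra than members with 1, while 3 other Treg genes did so in Tc9 only. The rule itself used the Foxp3 count, so this split describes the members and is no support for their label. Members with 1 and with 2 or more had medians of 3547 and 4767 UMIs in Tc1, and 4752 and 4530 in Tc9. The part of depth was not tested, and these values carry no intervals. Levels are given as CPM, the UMIs of a gene summed over a population as a share of all its UMIs, on the usual scale of counts per 1e6. Members with 2 or more Foxp3 UMIs had 1097 CPM of Ctla4 in Tc1 and 1018 in Tc9, and members with exactly 1 had 401 and 551 CPM. The melanoma-rich Tc1 barcode is among the latter, and without the rich barcodes the Ctla4 values were 1133 against 660 CPM in Tc1 and 1040 against 570 CPM in Tc9. On the same footing Ikzf2 was at 1382 against 1140 CPM in Tc1 and 1322 against 800 CPM in Tc9. Il2ra was at 357 against 234 CPM and 610 against 254 CPM. Gzmb, which encodes the cytotoxic protease granzyme B, was at 684 against 338 CPM and 508 against 91.5 CPM. These 4 genes were lower in members with a single Foxp3 UMI in both libraries. Other Treg genes were not in Tc1, where Tnfrsf18 was at 576 against 703 CPM, Tnfrsf4 at 773 against 933 CPM and Izumo1r at 214 against 316 CPM. In Tc9 these 3 went the same way as Ctla4, at 424 against 254 CPM, 542 against 343 CPM and 271 against 186 CPM. Cd40lg, the helper cell signal to antigen-presenting cells, went the other way, at 16.5 against 43.6 CPM and 56.9 against 136 CPM. In Tc1 the Cd40lg values rest on 7 and 8 UMIs.

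Members made up a similar share of T cells in both libraries but very different shares of Foxp3 cells. They were 3.92% of the 2604 gated T cells in Tc1 and 3.09% of the 6832 in Tc9 (2.69 to 3.53%), a difference of -0.829 percentage points (95% interval -1.74 to 0.00742). With cells thinned to 2000 UMIs before the gate was applied, the shares were 3.73% and 3.48%, and with 1000 UMIs they were 2.43% and 3.23%, a difference of 0.8004 points (0.0866 to 1.48). The direction of this difference therefore turned with depth. Foxp3 cells as a whole were 7.76% of gated cells in Tc1 and 15.3% in Tc9. Barcodes without Cd3 had a Foxp3 UMI in 0.692% and 4.96% of cases.

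Of the Foxp3 cells, 50.5% lacked Areg and Il1rl1 UMIs in Tc1 (43.4 to 57.6%) and 20.2% in Tc9 (17.8 to 22.8%), a difference of -30.2 points (-37.7 to -22.7). At 2000 UMIs per cell the shares were 65.4% and 32.2%, and at 1000 UMIs 75.9% and 45.7%. The interval of the difference lay below 0 at each depth, but it covers counting error only and not the spread between mice or libraries. Both genes of the rule contributed, since Il1rl1 was detected in 25.7% of Tc1 and 65.4% of Tc9 Foxp3 cells and Areg in 38.1% and 60.4%. The background differed between libraries too: barcodes without Cd3 had an Areg or Il1rl1 UMI in 3.08% of cases in Tc1 and 19.4% in Tc9, and comparison cells in 23.4% and 45.9%. The part of free RNA in this difference was not tested.

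Against comparison cells, members carried more transcripts of Treg identity, costimulatory and suppressive genes and fewer of helper cell genes, in both libraries. For each gene the summed UMIs of a population were turned into CPM, and a gene was called when it differed at least 1.5-fold in the same direction in both libraries, among 2983 genes with at least 50 CPM in one of the populations compared in each library. Of these, 132 were higher in members (4.43%) and 103 lower (3.45%). In single libraries 360 of them were higher and 476 lower in Tc1, and 297 higher and 126 lower in Tc9. Over all genes tested in a library, 647 of 3598 were higher and 532 lower in Tc1. In Tc9 403 of 3355 were higher and 145 lower. A gene that reached the minimum in a single population could only be called as higher in that population. The median log2 ratio over all tested genes was 0.07 in Tc1 and 0.12 in Tc9. With TMM scaling factors, which shifted all log2 ratios by -0.10 in Tc1 and -0.23 in Tc9, 86 genes were higher and 207 lower. With ratios centred on their median 101 were higher and 138 lower.

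**Figure D2:**
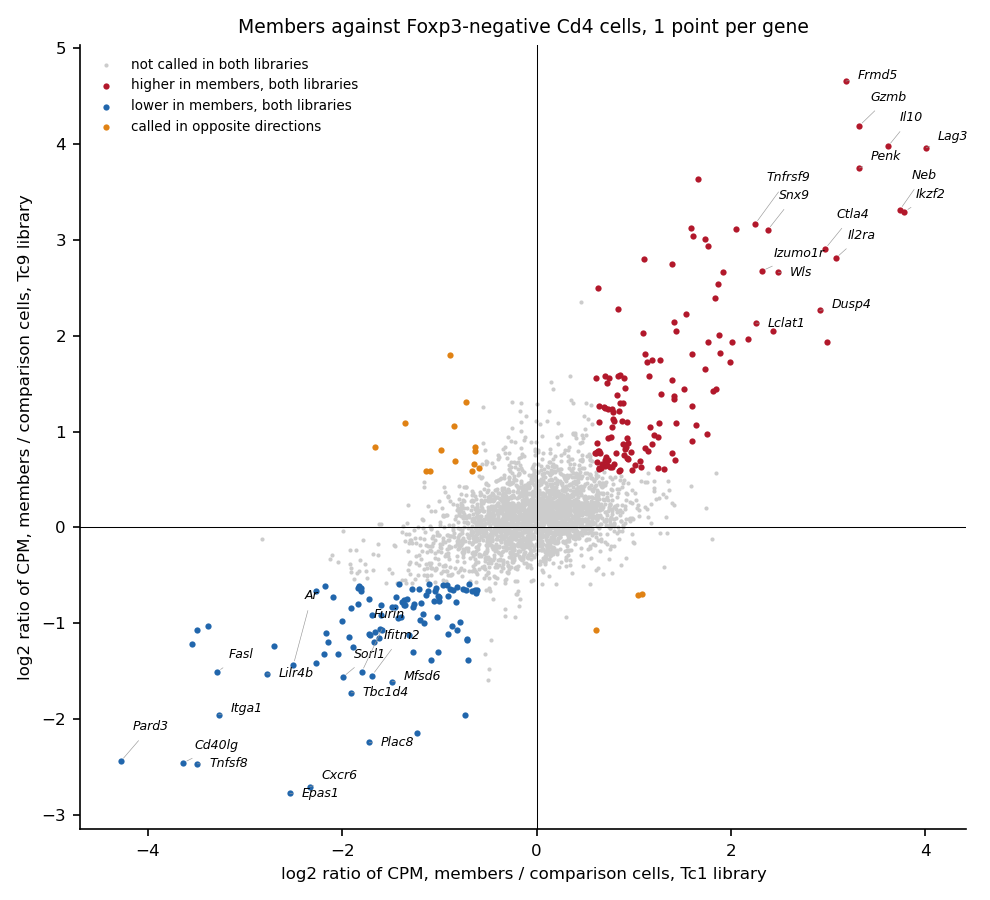
Log2 ratio of CPM between members and comparison cells in the Tc1 library (horizontal axis) and the Tc9 library (vertical axis), 1 point per gene for the 2983 genes tested in both. Red points are the 132 genes at least 1.5-fold higher in members in both libraries, blue points the 103 lower, and orange points genes called in opposite directions; the 30 labelled genes have the largest smaller ratio of the pair in each direction.

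The Treg identity list held 14 genes tested in both libraries, of which 9 were higher in members, 0 lower. Its median log2 ratio was 1.30 in Tc1 and 1.93 in Tc9. The genes were Ikzf2, Ctla4, Il2ra, Izumo1r, Tnfrsf18, Tigit, Capg, Swap70 and Entpd1. Ikzf2 was at 1079 CPM in Tc1 members and 78.3 in comparison cells, and at 1117 and 114 CPM in Tc9, log2 ratios of 3.78 (3.60 to 3.97) and 3.29 (3.19 to 3.39). Ctla4 was at 822 and 105 CPM in Tc1 and 861 and 115 CPM in Tc9, ratios of 2.97 and 2.90. Il2ra was at 263 and 31.1 CPM in Tc1 and 493 and 70.4 CPM in Tc9, ratios of 3.08 (2.76 to 3.401) and 2.81 (2.67 to 2.94). The 3 genes were thus several-fold higher in members in both libraries. Izumo1r, which encodes folate receptor 4, a surface marker of Treg cells, had ratios of 2.32 and 2.67. Some genes of the list were too low for the 50 CPM minimum in Tc1. Lrrc32 (GARP, which holds latent TGF-beta on the Treg surface) was at 23.7 against 3.84 CPM in Tc1 and 88.6 against 5.01 CPM in Tc9. Itgae (the CD103 integrin chain that retains T cells in epithelium) was at 46.0 against 2.93 CPM and 166 against 10.7 CPM, and was called in both libraries once the rich barcodes were left out. Nrp1, another Treg surface marker, had ratios of -0.22 and 0.24 and was called in neither library.

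Costimulatory receptors of the TNF receptor family followed the same direction. Tnfrsf4 (OX40) was at 690 against 173 CPM in Tc1 and 466 against 141 CPM in Tc9, log2 ratios of 1.995 and 1.73. Tnfrsf9 (4-1BB) was at 690 against 145 CPM and 335 against 37.4 CPM, ratios of 2.25 and 3.16. Both receptors carry activating signals and are abundant on Treg cells of tumours. Tnfrsf18 (GITR) had ratios of 0.85 and 1.59, Tnfrsf1b (TNF receptor 2) 0.77 and 0.94, and Cd27 1.92 and 2.67. In the TNF receptor and NF-kappaB list, 6 of 15 tested genes were higher in both libraries, these 5 and Bcl3, and 1 was lower, Tnfaip3, an inhibitor of NF-kappaB, which was not called without the rich barcodes. The list's medians were 0.27 and 0.33. The effector and tumour Treg list had 8 of 14 higher and 1 lower, with medians of 1.02 and 0.94. Among the 8, Ccr8, a chemokine receptor of tumour Treg cells, was at 147 against 43.6 CPM in Tc1 and 69.9 against 35.5 CPM in Tc9, and Prdm1 (Blimp-1) had ratios of 1.81 and 1.43. The exception was Cxcr6, a homing receptor of effector T cells, at 65.7 against 331 CPM in Tc1 and 44.3 against 289 CPM in Tc9, ratios of -2.33 and -2.70.

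Genes of suppression were also higher, 6 of the 10 tested, with 0 lower and medians of 1.76 and 2.42. They were Ctla4, Tigit, Lag3, Il10, Gzmb and Entpd1. Lag3, an inhibitory receptor for MHC class II, was at 61.8 CPM in Tc1 members (47 UMIs in 16 of 102 cells) and 71.6 CPM in Tc9 members (84 UMIs in 27 of 211), against 3.84 and 4.61 CPM in comparison cells. Its log2 ratios of 4.01 (3.18 to 4.90) and 3.96 (3.53 to 4.39) ranked first of all genes by the smaller of the pair. Il10, the anti-inflammatory cytokine, was at 52.6 against 4.29 CPM and 59.7 against 3.80 CPM, ratios of 3.62 and 3.97. Gzmb was at 464 against 46.5 CPM and 357 against 19.6 CPM, with a UMI in 31 of 102 and 55 of 211 members. In both libraries Lag3, Il10 and Gzmb reached the 50 CPM minimum through members alone. Under that filter they could only come out higher. At 2000 UMIs per cell Lag3 was detected in 7.76% and 8.62% of members and 0.544% and 0.925% of comparison cells, and Il10 in 9.18% and 8.63% against 0.495% and 0.486%. Barcodes without Cd3 had Lag3 in 0.606% and 2.86% and Il10 in 1.38% and 0.988%. These transcripts thus came from a minority of members. Penk, which encodes the opioid precursor proenkephalin, came from fewer still, with a UMI in 12 of 102 and 14 of 211 members, and single cells held 45.4% and 46.5% of its UMIs. Tgfb1, encoding an immunosuppressive cytokine, was called in neither library (-0.30 and -0.17). Nt5e, which makes adenosine, was called in Tc9 only (0.17 and 1.44).

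Other genes among the 15 highest were Neb, Frmd5, Wls, Snx9, Dusp4 and Lclat1. Frmd5 was at 69.7 against 7.67 CPM in Tc1 and 218 against 8.67 CPM in Tc9. Neb, known for the giant muscle protein nebulin, was at 93.3 against 6.996 CPM and 87.8 against 8.85 CPM. Wls, needed for the secretion of Wnt proteins, had log2 ratios of 2.49 and 2.66, and Dusp4, a phosphatase of MAP kinases, 2.91 and 2.26.

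Helper cell genes were lower in members. All 4 tested genes of the helper cytokine list were lower in both libraries, Cd40lg, Tnfsf8, Ifng and Tnfsf11, with list medians of -3.49 and -2.46. Without the rich barcodes Tnfsf11 in Tc1 was at -0.48 and not called. Cd40lg was at 19.7 CPM in Tc1 members and 245 in comparison cells, and at 81.0 and 444 CPM in Tc9, log2 ratios of -3.64 and -2.46. Tnfsf8 (CD30 ligand) was at 9.20 against 103 CPM and 27.3 against 150 CPM. Ifng, encoding interferon-gamma, was at 9.20 against 103 CPM and 36.6 against 77.0 CPM. Tnfsf8 and Ifng reached the 50 CPM minimum through comparison cells alone, as did Cd40lg in Tc1. Genes admitted in that way can only be lower in members, so the count of 4 is no support by itself. At equal depth Cd40lg was detected in 5.49% and 10.7% of members against 35.3% and 50.7% of comparison cells, and Ifng in 1.55% and 4.52% against 12.5% and 11.2%. For Tc9 the Cd40lg share of members was near the 8.86% of barcodes without Cd3, and the Ifng share was below the 8.53% found there. The type 2 cytokine Il13 was at 0 CPM in Tc1 members and 0.852 in Tc9 members, against 13.8 and 56.7 CPM in comparison cells. Il4 was at 2.63 and 0.852 CPM against 25.7 and 49.8 CPM, and Il2 at 1.31 and 5.11 CPM against 32.5 and 35.0 CPM, all too low for the minimum in at least one library.

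Among helper lineage factors 3 of 9 were lower in both libraries and 0 higher. By the rule no member had an Areg or Il1rl1 UMI, whereas 23.4% of Tc1 and 45.9% of Tc9 comparison cells had one. With those comparison cells left out, 13 named-gene ratios moved beyond counting error in Tc1 and 47 did not. In Tc9, 32 moved and 26 did not. Gata3, the master factor of type 2 helper cells that tissue Treg cells also use, was at 104 against 169 CPM in Tc1 and 146 against 379 CPM in Tc9. Bhlhe40, a regulator of cytokine production, had log2 ratios of -1.62 and -1.15, and Runx3 -0.62 and -0.65. Without the barcodes rich in other cells' transcripts, 1 of 9 was lower in both, Bhlhe40, because the Tc1 ratios of Gata3 and Runx3 became -0.52 and -0.49. With cells thinned to 2000 UMIs after the gate the Tc1 ratio of Runx3 was 0.02. Fasl, the ligand of the death receptor Fas, was at 7.89 against 77.0 CPM and 21.3 against 60.5 CPM. Itga1, an integrin chain of tissue-resident T cells, was at 9.20 against 88.9 CPM and 15.3 against 59.3 CPM. Both genes, with Epas1 (HIF-2 alpha, ratios -2.54 and -2.77), Pard3 (-4.28 and -2.44) and Plac8 (-1.72 and -2.24), were among the 15 lowest.

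Genes of resting T cells split by library. In Tc1, 10 of 13 tested genes of the resting and naive list were lower in members and 1 higher, with a median log2 ratio of -1.32. In Tc9, 3 of 10 were lower and 2 higher, with a median of -0.12, and without the rich barcodes 2 of 9 were lower and 1 higher. Over all genes tested in each library, 532 of 3598 were lower in Tc1 and 145 of 3355 in Tc9. Tcf7, a factor of memory and naive T cells, was lower in both, at 64.4 against 266 CPM in Tc1 and 103 against 256 CPM in Tc9. Bcl2, which protects resting T cells from death, had ratios of -1.89 and -1.25. Satb1, a chromatin organiser, had -2.18 and -0.61, just past the call in Tc9. Bach2 had -2.82 and -0.12, and Lef1 -1.32 and 0.23, so that both were called in Tc1 only. Foxp1 was called in opposite directions, at 101 against 321 CPM in Tc1 and 302 against 169 CPM in Tc9. The comparison cells themselves differed between the libraries in this list, with 8 of 13 genes lower in Tc9 and a median Tc9 to Tc1 ratio of -0.92.

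Of the remaining lists, TCR signal genes had 1 of 14 higher in both libraries, Tnfrsf9, and 3 lower. Dissociation stress genes had 5 of 14 lower and 0 higher, among them Fosb (-1.71 and -1.12) and Hspa1a (-1.59 and -1.06). Fosb is in both lists. Oxidative phosphorylation genes encoded in the nucleus had 0 of 16 called. Glycolysis genes were higher in 13 of 18 in Tc1 and 4 of 14 in Tc9, against 647 of 3598 and 403 of 3355 of all tested genes. Without barcodes rich in other cells' transcripts the Tc1 count was 6 of 18, against 616 of 3642 of all tested genes. The melanoma-rich barcode held 4636 of the 6774 Gapdh UMIs of all Tc1 members.

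Markers of other cells were summed over each list in the members. Macrophage genes came to 914 CPM in Tc1 and 395 CPM in Tc9, where C1qc and Adgre1 were at 0, against 1277 and 262 CPM in comparison cells. Dendritic cell genes, mostly of MHC class II, came to 860 and 113 CPM, with Xcr1 at 0 in both, against 1937 and 155 CPM in comparison cells. Without the rich barcodes this order turned, with 805 against 463 CPM in Tc1 and 114 against 31.2 CPM in Tc9. Macrophage genes in Tc1 then also turned, at 733 against 692 CPM. Melanoma genes came to 1606 CPM in Tc1, nearly all in the barcode described above, and to 3.41 CPM in Tc9. Natural killer and gamma-delta T cell genes stayed between 6.57 and 16.2 CPM. Of the neutrophil list, Tc9 members had 0 UMIs and Tc1 members 2. B cell genes came to 222 and 208 CPM, against 76.3 and 32.7 CPM in comparison cells. Fibroblast and endothelial genes came to 82.8 and 544 CPM against 121 and 162 CPM, and 455 UMIs of that list in Tc9 were in 1 barcode. When only cells with 0 UMIs of the 4 macrophage genes of the rule were kept, 17 of the named-gene ratios against comparison cells moved beyond counting error in Tc1 and 0 in Tc9. No ratio of at least 1.5-fold changed sign.

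Members were also compared with the Foxp3 cells that had Areg or Il1rl1 UMIs. Fewer genes were called in both libraries than against comparison cells. Of 2937 tested genes, 6 were higher in members in both libraries (0.204%) and 47 lower (1.6%). In single libraries 135 were higher and 319 lower in Tc1, and 26 higher and 82 lower in Tc9. The median log2 ratio over tested genes was -0.07 in Tc1 and -0.01 in Tc9. Treg identity genes had 0 of 17 higher and 1 lower in both, Cd83, with list medians of -0.42 and -0.30. Without the rich barcodes Cd83 was not called. Ctla4 was at 822 CPM in Tc1 members and 1024 in the Areg or Il1rl1 cells, and at 861 and 868 CPM in Tc9. Ikzf2 was at 1079 and 1156 CPM in Tc1 and at 1117 and 1658 CPM in Tc9, so its difference was small in Tc1 and larger in Tc9. Il2ra was at 263 and 314 CPM in Tc1 and 493 against 908 CPM in Tc9, where the log2 ratio was -0.88. At equal depth Il2ra was detected in 34.9% of members and 40.3% of Areg or Il1rl1 cells in Tc1, and in 43.0% and 65.9% in Tc9.

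The genes lower in members included Klrg1, Gata3 and genes of NF-kappaB signalling. Klrg1, a receptor of terminally differentiated and tissue Treg cells, was at 135 CPM in Tc1 members and 388 in the other Foxp3 cells, and at 45.2 and 124 CPM in Tc9, log2 ratios of -1.52 and -1.46. At 2000 UMIs per cell Klrg1 was detected in 23.4% against 43.4% in Tc1 and 7.80% against 19.3% in Tc9, with 0.364% and 1.29% in barcodes without Cd3. Gata3 was at 104 against 157 CPM and 146 against 298 CPM. With cells thinned to 2000 UMIs after the gate its Tc1 ratio was 0.30, on the other side of 0. Tnfrsf9 had log2 ratios of -0.68 and -0.99 and was called in both libraries. Tnfrsf4 had -0.57 and -0.80 and was called in Tc9 only. In the TNF receptor and NF-kappaB list, 4 of 15 genes were lower in both libraries (Tnfrsf9, Nfkb1, Rel and Nfkbia) and 0 higher, with medians of -0.72 and -0.43. Without the rich barcodes 2 of 15 were lower, Tnfrsf9 and Nfkbia. Il15ra had ratios of -1.35 and -1.61 and Cd83 -1.48 and -1.57. Cd80, Cd74, Cxcl2, Cxcl10, Lilrb4a, Lyn and Rrad were the others among the 10 lowest. Dendritic cell genes, which include Cd74, came to 5509 CPM in the Tc1 Areg or Il1rl1 cells against 860 CPM in the members, and to 382 against 113 CPM in Tc9. With the rich barcodes left out they came to 841 against 805 CPM in Tc1 and 220 against 114 CPM in Tc9. Without the rich barcodes the Cd74 ratio in Tc1 was -0.12 and 25 genes were lower in place of 47, while Klrg1 remained lower at -1.41 and -1.43.

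The few genes higher in members were Sparc, Rab3ip, Slfn1, Ly6c2 and Aff3 and the unnamed gene model Gm2682, given here after its values were seen. For Sparc, a matrix protein gene, 201 of 204 Tc1 UMIs and 89 of 89 Tc9 UMIs came from single cells, and Sparc did not reach the minimum without the rich barcodes. Ly6c2 had 0.62 and 1.28, and its Tc1 ratio was -0.51 among members with a Cd4 UMI. Slfn1, linked to T cell quiescence, was at 68.4 against 42.3 CPM and 57.1 against 31.5 CPM. Aff3 was at 63.1 against 17.2 CPM and 151 against 98.5 CPM. Tcf7 was at 64.4 against 31.7 CPM and 103 against 70.0 CPM, log2 ratios of 1.02 and 0.56. In Tc9 the Tcf7 ratio fell short of the call, and without the rich barcodes it was 0.5945, just past the call, and Tcf7 was called in both. Ccl4, a chemokine of activated T cells, then also differed, at 263 against 82.7 CPM and 176 against 33.0 CPM, from UMIs in 14 members of each library. Cxcr3, a homing receptor of type 1 responses, was called in opposite directions, at 154 against 239 CPM in Tc1 and 137 against 76.2 CPM in Tc9. Without the rich barcodes its Tc1 ratio was -0.49 and the call in Tc1 was lost.

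Between the libraries, member profiles differed widely, and so did those of the Foxp3 cells with Areg or Il1rl1. Of 3771 genes with at least 50 CPM in members of either library, 992 were at least 1.5-fold higher in Tc9 (26.3%) and 854 lower (22.6%). The median log2 ratio over tested genes was 0.09. In the Foxp3 cells with Areg or Il1rl1, 736 of 3734 genes were higher in Tc9 and 757 lower. Comparison cells had 297 of 3341 higher and 435 lower. Among 3142 genes tested in members and in comparison cells, 218 were higher in Tc9 in both populations and 635 in members but not in comparison cells. In the other direction 267 were lower in both and 316 in members but not in comparison cells, and 12 were called in opposite directions. The difference between these ratios was not tested. The genes with the largest ratios came from single barcodes. Col3a1, Col1a1, Col1a2, Dcn and Gsn, genes of fibroblasts, led in Tc9, and 268 of 289 Gsn UMIs came from 1 cell. Pmel, Dct, Mlana, Tyrp1 and Hbb-bs led in Tc1, where the melanoma-rich and haemoglobin-rich barcodes were.

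Without the 6 rich barcodes, 768 genes were higher and 747 lower in Tc9, with a median over tested genes of 0.00. Abcg1, a cholesterol exporter, stood at 8.21 CPM in Tc1 members against 102 CPM in Tc9 members, which is a ratio of 3.63, against 1.48 in comparison cells. Acvr2a, an activin receptor, had a ratio of 2.75, Klf12 2.54 and Cxcr4, the receptor for CXCL12, 2.12. With all members counted, Cxcr4 stood at 34.2 CPM in Tc1 against 166 CPM in Tc9. Itgae, Lrrc32 and Nt5e were also higher in Tc9, by 1.85, 1.91 and 1.84 with all members. Higher in Tc1 were Pdcd1 (PD-1), at a ratio of -2.75, Il1r2, a decoy receptor for interleukin-1, at -2.20, Klrg1 at -1.58 and Tigit at -1.21. Ccl3 and Ccl6, which are chemokines, had -3.53 and -4.43 without the rich barcodes. In Tc1 members 61 of 106 Ccl3 UMIs were in 1 cell. The proliferation genes Tyms, Rrm2 and Pclaf had -3.59, -3.30 and -3.80.

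As lists, glycolysis genes were lower in Tc9 in 14 of 18 with a median log2 ratio of -1.84. The median was -1.09 without the rich barcodes. It was -1.28 in comparison cells and -1.44 in the Foxp3 cells with Areg or Il1rl1, so the same direction was present outside the members. The effector and tumour Treg list had 9 of 19 lower and 5 higher with a median of -0.57, against -0.25 in comparison cells. Without the members above the 95th percentile of UMIs it had 12 lower and 1 higher and a median of -0.93. The Foxp3 cells with Areg or Il1rl1 had 10 of 19 lower and 3 higher with a median of -0.74. Trimmed in the same way they had 9 lower and 3 higher with a median of -0.38. Type I interferon response genes had 4 of 9 lower with a median of -0.14 with all members, 6 of 11 with -0.84 without the rich barcodes and 11 of 14 lower with a median of -1.60 without those of most UMIs, against -1.004 in comparison cells. In the Foxp3 cells with Areg or Il1rl1, 8 of 11 interferon genes were lower with a median of -1.09. Isg15, a ubiquitin-like protein induced by interferon, stood at 170 CPM in Tc1 members against 32.4 CPM in Tc9 members. The resting and naive list had 6 of 11 higher and 2 lower in Tc9 members, with a median of 0.68, and 4 higher without the rich barcodes. The Foxp3 cells with Areg or Il1rl1 had 8 of 11 higher with a median of 0.88, while in comparison cells 0 of 13 were higher and 8 lower. TCR signal genes had 11 of 15 higher with a median of 0.77, but 5 of 15 without the rich barcodes, and 3 of 15 with a median of 0.30 without the members of most UMIs. Comparison cells had 6 of 15 higher and a median of 0.51, and the Foxp3 cells with Areg or Il1rl1 9 of 15 and 0.75, so the direction was shared. Nr4a3, an early gene of receptor signalling, stood at 42.1 CPM in Tc1 against 165 CPM in Tc9.

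**Figure D3:**
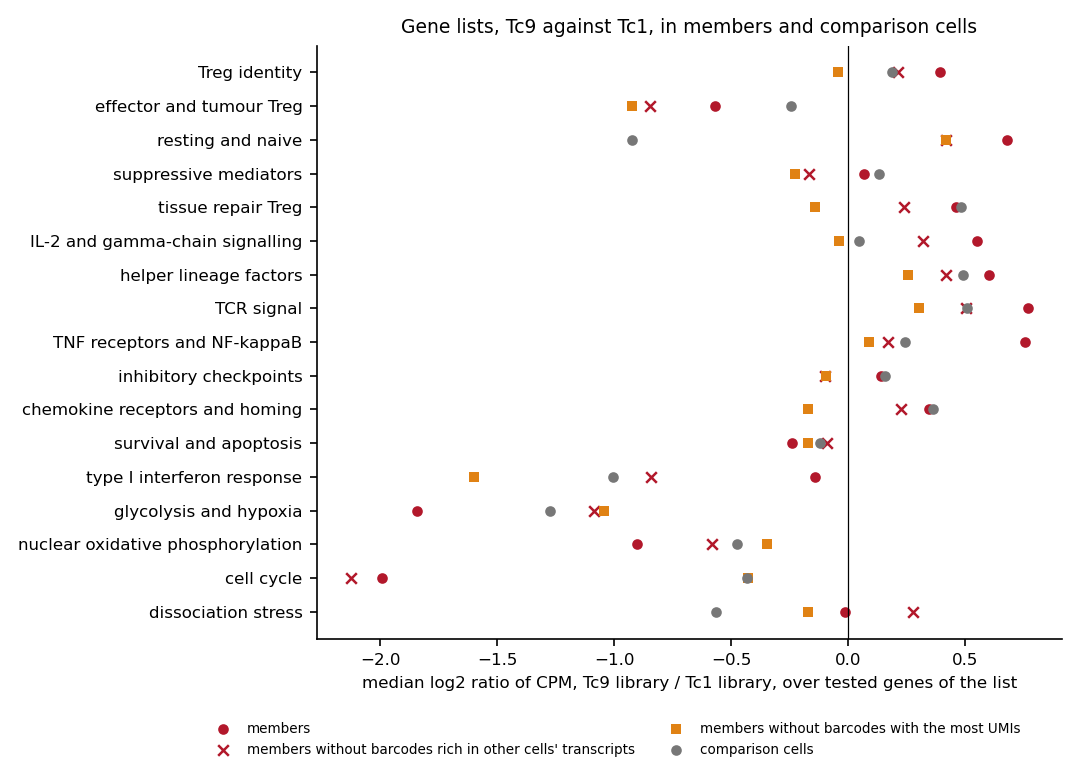
Median log2 ratio of CPM, Tc9 library over Tc1 library, over the tested genes of each list (horizontal axis), in all members, in members without barcodes rich in other cells' transcripts, in members without those above the 95th percentile of UMIs, and in comparison cells. Glycolysis lies between -1.84 and -1.05 in every set, the cell cycle list moves from -1.99 to -0.43 once the members with the most UMIs are left out, and the resting and naive list lies on opposite sides of 0 in members and comparison cells.

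Cell cycle genes were lower in Tc9 members. All 12 tested genes of the list were called lower, with a median log2 ratio of -1.99. Mki67, a marker of dividing cells, was at 181 CPM in Tc1 members and 40.1 in Tc9 members, and Top2a, which untangles DNA, at 154 and 34.1 CPM. Both reached the 50 CPM minimum through Tc1 alone. Genes admitted in that way can only be lower in Tc9, so the count of 12 is no support by itself. Comparison cells had 73.1 and 53.2 CPM of Mki67. In the Foxp3 cells with Areg or Il1rl1, 9 of 11 tested genes of the list were lower in Tc9, with a median of -1.22. Within Tc1, 12 of 12 tested cell cycle genes were higher in members than in comparison cells, with a median of 1.24. In Tc9 1 of 5 was higher and 1 lower. Mcm6, part of the replicative helicase, was the one called in both libraries, at 1.44 and 1.09. Among all genes tested in this comparison, 647 of 3598 were higher in Tc1 and 403 of 3355 in Tc9. Here too a gene could reach the minimum through members alone. Most of the cell cycle signal in Tc1 lay in few cells. The Tc1 members held 1477 UMIs of the 20 listed genes, and 83.0% of them were in the 17 members above the 95th percentile of UMIs, at 3007 CPM against 711 CPM in the other 85. The Tc9 members held 668, with 20.7% in the 13 such members, at 676 against 547 CPM. At least 20 cell cycle UMIs were found in 14 Tc1 and 5 Tc9 members.

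At equal depth the gap was smaller but present. With 2000 UMIs per cell, 3 or more cell cycle UMIs were found in 24.3% of Tc1 members (16.1 to 34.1%) and 7.48% of Tc9 members (4.22 to 12.1%). These intervals did not overlap, but they cover counting error within 1 library per group and not the spread between mice. The comparison cells had 12.3% and 5.77%, and the Foxp3 cells with Areg or Il1rl1 23.1% and 9.02%. Without the members above the 95th percentile of UMIs, 5 genes of the list were tested between libraries and 2 were lower in Tc9, with a median of -0.43. Comparison cells trimmed in the same way had 3 of 4 lower and a median of -0.79, and with all cells kept 1 of 5 and -0.43. The part of UMI number per cell in this difference was not tested further.

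**Figure D4:**
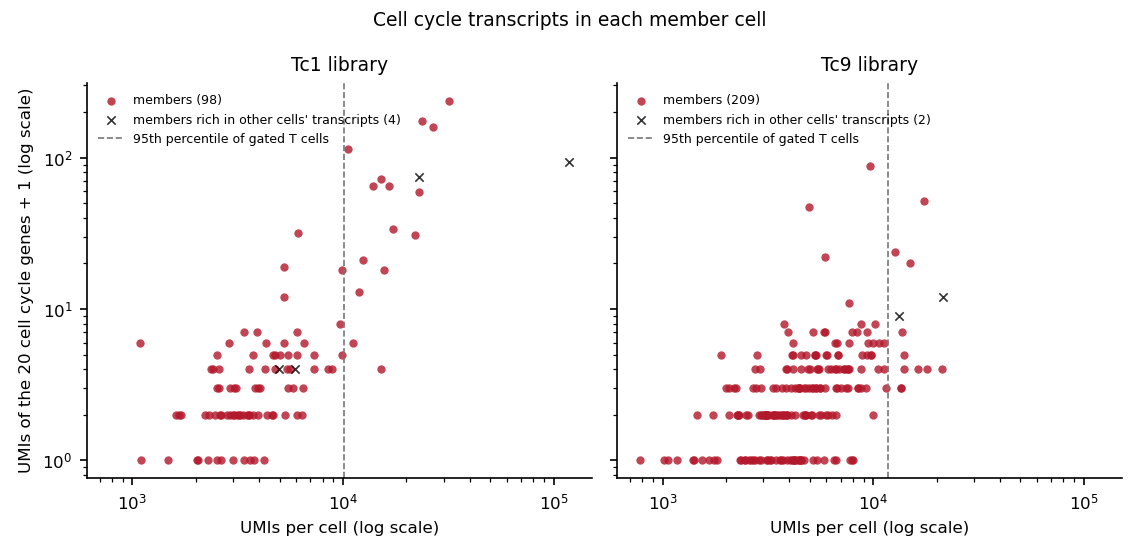
UMIs of the 20 cell cycle genes plus 1 (vertical axis, log scale) against all UMIs (horizontal axis, log scale) in each member cell of the Tc1 library (left) and the Tc9 library (right); crosses are members rich in other cells' transcripts and dashed lines the 95th percentile of UMIs in the gate. Of the 14 Tc1 members with at least 20 cell cycle UMIs, 13 lie right of the line, and of the 5 such Tc9 members 2 do.

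The TCR libraries gave a productive contig for 81 of the 102 Tc1 members and 114 of the 211 Tc9 members. A clonotype was defined by identical nucleotide sequences of the alpha and beta CDR3, the loop that contacts peptide, with their V and J genes, among cells with exactly 1 chain of each. Such a pair was present in 48 Tc1 and 60 Tc9 members. These fell into 41 clonotypes in Tc1 and 60 in Tc9, so in Tc9 no 2 members with a pair shared a receptor. Clonotypes of at least 3 cells in the library held 29.2% of Tc1 members with a pair (17.0 to 44.1%) and 16.7% of Tc9 members (8.29 to 28.5%), a difference of -12.5 points whose interval included 0 (-29.6 to 4.52). Comparison cells were in such clonotypes in 44.4% of 383 cells in Tc1 (39.3 to 49.5%) and 69.7% of 971 in Tc9 (66.7 to 72.6%). The Foxp3 cells with Areg or Il1rl1 had 18.4% of 49 (8.76 to 32.0%) and 12.1% of 198 (7.92 to 17.5%). By counting error only, the Tc9 member interval lay below that of comparison cells, and in Tc1 the intervals overlapped.

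**Figure D5:**
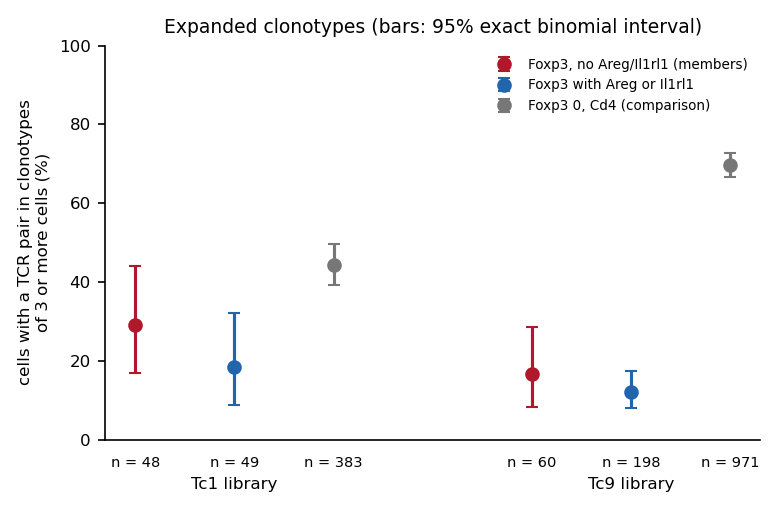
Share of cells with a TCR pair that belonged to clonotypes of 3 or more cells (vertical axis, percent) in members, Foxp3 cells with Areg or Il1rl1, and comparison cells of each library; bars are 95% exact binomial intervals and n is the number of cells with a pair. Members lie at 29.2% and 16.7%, comparison cells at 44.4% and 69.7%.

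Most member clonotypes were seen in 1 cell only, so they could not appear in another population. Among members with a pair, a receptor present in at least 2 cells of the library was found in 15 of 48 for Tc1. For Tc9 this was so in 14 of 60. A low overlap across all member clonotypes therefore does not show that members had receptors separate from those of other cells. In Tc1, 2 of 41 also held a comparison cell, which is 2 of the 253 clonotypes of comparison cells, and 2 of 41 also held a Foxp3 cell with Areg or Il1rl1, 2 of 45. In Tc9, 10 of 60 also held a comparison cell, 10 of 360, and 5 of 60 held an Areg or Il1rl1 cell, 5 of 180. With 1 member per Tc9 clonotype, 14 clonotypes could be shared, and 10 of these 14 held a comparison cell. No clonotype (0) was found among members of both libraries.

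Clonotypes were ranked by their number of members and then by size, and some are shown by their CDR3 nucleotide sequences. Identical sequences can mark cells of shared descent, but not where the receptor comes from a transgene. Each runs 5′ to 3′ as read from the contigs, with its first codon and last codon in capitals. These are the conserved cysteine codon and the codon of the closing phenylalanine. The first in Tc1 used TRAV3N-3 with TRAJ18 and TRBV16 with TRBJ1-1 and held 12 cells, 4 of them members. Of the 12, 10 had a Foxp3 UMI, 1 was a comparison cell and 4 had a Cd8 UMI. Its members held between 3 and 236 cell cycle UMIs, the latter the highest of all members.
Tc1 12-cell alpha: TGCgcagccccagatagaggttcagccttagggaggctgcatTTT
Tc1 12-cell beta: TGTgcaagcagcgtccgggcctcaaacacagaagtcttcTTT

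Another Tc1 clonotype had 5 cells, 3 of them members, and all 5 had a Foxp3 UMI. It used TRAV6D-4 with TRAJ22 and TRBV15 with TRBJ2-1.
Tc1 5-cell alpha: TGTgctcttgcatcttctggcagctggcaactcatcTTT
Tc1 5-cell beta: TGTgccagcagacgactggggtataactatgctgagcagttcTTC
A further Tc1 clonotype had 6 cells, 2 of them members and 1 an Areg or Il1rl1 cell, and all 6 had a Foxp3 UMI. It used TRAV10 with TRAJ43 and TRBV3 with TRBJ2-7.
Tc1 6-cell alpha: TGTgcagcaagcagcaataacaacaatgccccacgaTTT
Tc1 6-cell beta: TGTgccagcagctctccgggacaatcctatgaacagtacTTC
These 3 clonotypes were made up almost wholly of Foxp3 cells. A Tc1 clonotype of 10 cells was of the other kind, with 1 member, 2 comparison cells and only 1 cell with a Foxp3 UMI.

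In Tc9 each clonotype held 1 member, and the 5 described are the largest, except that 3 were tied at 13 cells and 1 of these is left out. One used TRAV13N-2 with TRAJ34 and a beta chain with TRBJ2-5, and it was a Foxp3 clonotype. Of its 13 cells, 12 had a Foxp3 UMI and 9 were Areg or Il1rl1 cells, so the member shared its receptor with cells that carried the transcripts it lacked.
Tc9 13-cell alpha: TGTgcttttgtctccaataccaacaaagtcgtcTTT
Tc9 13-cell beta: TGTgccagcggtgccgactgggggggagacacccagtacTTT
The largest, with 155 cells, used TRAV7N-5 with TRAJ40 and TRBV14 with TRBJ1-6. In it 111 cells had a Cd8 UMI and 35 a Foxp3 UMI, and 9 were comparison cells. Its beta chain was also found in the Tc1 library, the single member (1 of 102 with a beta chain) for which that held. The receptor of the Pmel-1 cells was not matched here, so whether this clonotype is the transgenic receptor was not tested. If it were, its sharing between cells would not show a common ancestor.
Tc9 155-cell alpha: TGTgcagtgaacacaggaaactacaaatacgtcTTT
Tc9 155-cell beta: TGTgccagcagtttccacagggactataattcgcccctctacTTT
The other 3 of the 5 held 87, 37 and 13 cells with 64, 21 and 10 comparison cells, and in each the member was the only cell with a Foxp3 UMI (1 of 87, 1 of 37 and 1 of 13). For scale, 4.96% of Tc9 barcodes without Cd3 had a Foxp3 UMI, and its part in these 3 members was not tested.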

How the data were processed

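CD4 T cells of pooled tumours gave 2 RNA and 2 TCR libraries (10x 5′ v2 chemistry, per the labels' protocols). The authors deposited raw UMI counts per gene and barcode and filtered TCR contigs (deposited tables of chain, V and J gene and CDR3 sequence, used as labels, unit other), made with Cell Ranger 7.0.0, per the file headers, on mm10 (GRCm38) per the submitters' processing notes. Counts were not normalised by the authors. Barcodes were filtered and gated by the rule given above, and UMIs of each population were summed and scaled to CPM. Ratios carry exact conditional 95% intervals, and a count of 0 was set to the floor of 3. Shares carry Clopper-Pearson intervals and their differences Newcombe intervals. At 2000 UMIs, gene and list shares are exact expectations over all thinnings, and member shares and gene combinations are means over 100 random thinnings. Shallower cells were left out. Genes of the rule and TCR and immunoglobulin segments were not tested.

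Members and gene lists were chosen with earlier results of these data known, so no pattern is independent support. Named genes are the 15 highest and 15 lowest against comparison cells and between libraries, the 10 highest and 10 lowest against Foxp3 cells with Areg or Il1rl1, and genes of the lists. Genes starting Gm or ending Rik were left out of the naming rule, and some genes of the lists are not reported here. Barcodes rich in other cells' transcripts were defined after the data were seen. The code was tested on simulated data for members against comparison cells, with 3286 genes tested in Tc1 and 2990 in Tc9, changed genes included. Of 200 genes changed 3-fold, 100% were called in each library. Of the tested genes left unchanged, 1.004% were called in Tc1 and 0.143% in Tc9. The simulated molecules were drawn independently for each population as a whole, without the uneven spread of UMIs over cells. These shares are therefore a check of the code and not the rate of false calls in these data. Software was Python 3.11.15, numpy 2.4.6, scipy 1.17.1, pandas 2.3.3, R 4.3.3 and edgeR 4.0.16 (TMM factors only).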

Additional observations from a re-analysis of the deposited data

Results flagged for a closer look

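Members differed from comparison cells in opposite directions in the libraries for Foxp1, a factor of resting T cells, with log2 ratios of -1.67 in Tc1 and 0.84 in Tc9. Top2a, a gene of dividing cells, did so with 1.09 in Tc1 and -0.69 in Tc9. Against the Foxp3 cells with Areg or Il1rl1, the chemokine receptor gene Cxcr3 had -0.64 in Tc1 and 0.85 in Tc9, and without the barcodes rich in other cells' transcripts Cxcr3 had -0.49 in Tc1, short of the call. With 1 library per group the difference between these ratios was not tested. Foxp1 and Top2a share their libraries with the other genes above, so they are not separate evidence.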

How the results depend on the processing

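With 1 pooled library per group, the spread between mice is unknown, and low genes are limited by 102 and 211 cells. Sign changes were counted only for ratios of at least 1.5-fold in the main setting, and genes under the minimum of a setting were left out of it. Of the named-gene ratios under the alternatives, 2999 moved by less than their counting error, 388 moved further and 3 changed sign. Those were Runx3 against comparison cells in Tc1 (0.0216) and Gata3 against the Areg or Il1rl1 cells in Tc1 (0.30), both thinned to 2000 UMIs, and Ly6c2 against those cells in Tc1 among members with a Cd4 UMI (-0.51). The cause was not tested.

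Counts of called genes depended mostly on the CPM minimum. Against comparison cells, the 132 higher and 103 lower genes became 452 and 242 with a minimum of 10 CPM, 58 and 58 with 100 CPM, 1261 and 416 with none, and 86 and 207 with TMM factors. The higher count was 218 with cells weighted equally, 216 with thinned cells and 220 without the 5% of cells with the most UMIs. With only comparison cells that had no Areg or Il1rl1 UMI, 148 genes were higher and 101 lower. Against the Areg or Il1rl1 cells, the 6 higher and 47 lower genes became 102 and 141, 1 and 23, and 377 and 366 with those minimums. The higher count was 26 with thinned cells, 3 among members with a Cd4 UMI and 14 without the 5% with the most UMIs. The lower count was 27 with cells weighted equally, 30 with at least 2 Foxp3 UMIs and 25 without the rich barcodes. Between libraries, 992 higher and 854 lower became 1950 and 2492, 565 and 434, and 2620 and 3972, and the higher count was 600 without the 5% with the most UMIs. Thinned to 1000 UMIs, the member share of gated cells differed by 0.8004 points. The rich-barcode removal was chosen after the data were seen. No paired analysis was possible because each group had 1 library.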
